A study of Mus musculus with 9 samples.

Results

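The co-receptors that present LPS to Toll-like receptor 4 (TLR4) and the adaptors and kinases that join Toll receptors to the signalling machinery were examined in CD11b+ B cells, CD11b- B cells and peritoneal macrophages (PMs). The set holds 10 genes of the 55322 in the expression table and was chosen by gene symbol. It consists of *Cd14*, *Ly96*, *Cd180*, *Ly86*, *Myd88*, *Tirap*, *Ticam1*, *Ticam2*, *Irak3* and *Irak4*. Each symbol occurred in 1 row of the table, and all 10 genes passed the filter on low values described below. The B cells came from the BM of WT C57BL/6 mice, sorted 48 h after an intraperitoneal dose of 5 mg/kg LPS, and were divided by surface CD11b. Before that sort, cells with T, NK, granulocyte or erythroid surface markers had been depleted with beads, and how complete this was is not stated. PMs were sorted as CD11b+F4/80+ cells from untreated WT mice. There were 3 libraries in each group. The study drew the SD around these FPKM values, its convention for biological replicates, but does not say whether each library came from a separate mouse, so p-values measure the spread between these libraries. B cells and PMs differed in cell type, tissue and exposure to LPS together, and these cannot be told apart.

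CD14 is a surface protein that takes up LPS and passes it to the complex of TLR4 with its small partner MD-2, the product of *Ly96*. CD180, also called RP105, resembles the outer part of TLR4 but lacks its signalling domain, is known from B cells, and needs MD-1, the product of *Ly86*, to reach the cell surface. Inside the cell, TIRAP brings MYD88 to TLR4 at the plasma membrane, whereas TRAM (*Ticam2*) brings TRIF (*Ticam1*) to it at endosomes. MYD88 assembles with the kinase IRAK4, and IRAK3, also called IRAK-M, is a relative without efficient kinase activity that restrains the signal.

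Expression is given as FPKM, the fragments counted on a gene scaled to the length of its exons and to the reads counted on all genes of the library. Reads on genes ranged from 18014658 to 35251215 per library, and the member with the fewest reads in any library, *Cd14*, had 15 there. Differences were fitted with limma on log2(FPKM + 1), in which the pseudocount of 1 shrinks the differences of weakly expressed genes, and a gene is said to have passed where its Benjamini-Hochberg adjusted p over all tested genes was under 0.05. A gene entered if its FPKM averaged at least 0.05 over the 6 libraries compared. The summed FPKM of 12 B cell markers was 5844 to 6597 in CD11b+ B cells, 7598 to 8135 in the CD11b- cells and 69.0 to 134 in PMs. In the same order, the summed FPKM of 16 macrophage and monocyte markers was 171 to 353, 59.6 to 69.7 and 26035 to 63274, and that of 16 neutrophil markers was 237 to 1628, 8.85 to 15.0 and 218 to 281. In PMs that last sum came mostly from *Prtn3* (mean 171) and *Csf3r* (62.9), whereas *S100a8*, *S100a9* and *Ngp* averaged 6.02, 2.83 and 0.357 there. Of the markers, *Cd300e* was listed at 0 in all CD11b- B cell libraries and *Ly6g* in all PM libraries. *Itgam*, which encodes CD11b, had an FPKM of 1.31 to 1.92 in CD11b+ B cells, 0.251 to 0.869 in the CD11b- cells and 251 to 358 in PMs, although 68.7% of its exon bases are shared with another annotated gene, *Gm49368*.

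The members are scattered over the genome (GRCm38, GENCODE M21). *Ly96* lies on chr1:16688051-16709611 on the plus strand, *Cd180* on chr13:102693558-102739629 and *Ly86* on chr13:37345208-37419036, both plus. On the minus strand, *Myd88* lies on chr9:119335934-119341411 and *Tirap* on chr9:35184551-35200291. *Ticam1* lies on chr17:56269319-56276786 and *Irak3* on chr10:120141648-120202130, both minus, and *Irak4* on chr15:94543643-94581815, plus. The remaining members, *Cd14* and *Ticam2*, are placed with their values below. All are protein coding. No exon base of *Cd14*, *Ly96*, *Ly86* or *Ticam1* is shared with another gene. The shared part of the exons was 14.5% for *Ticam2*, with *Tmed7* on the same strand, 11.3% for *Myd88*, 9.84% for *Tirap*, 7.87% for *Irak4*, 5.98% for *Irak3* and 4.04% for *Cd180*, and the sources used here do not say whether the counting used the strand.

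The bases before the transcription start are shown for *Cd180*, for *Ly86*, whose product pairs with that of *Cd180*, and for *Irak4*, since *Cd180* and *Irak4* passed in opposite directions between CD11b+ B cells and PMs. They are taken from RefSeq on GRCm38.p6, which held an entry for 7 of the 10 genes but not for *Cd14*, *Ly96* or *Ticam2*, and stop before the first base transcribed in GENCODE. All 3 are on the plus strand, at chr13:102693297-102693546, chr13:37345095-37345207 and chr15:94543410-94543642. Capitals mark GGAA on either strand, the core that ETS family factors such as PU.1 bind.
Cd180: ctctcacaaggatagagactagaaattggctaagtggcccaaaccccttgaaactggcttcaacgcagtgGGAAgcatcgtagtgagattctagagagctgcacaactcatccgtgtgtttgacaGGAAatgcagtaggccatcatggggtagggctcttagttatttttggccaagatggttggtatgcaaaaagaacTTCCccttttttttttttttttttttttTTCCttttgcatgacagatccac
Ly86: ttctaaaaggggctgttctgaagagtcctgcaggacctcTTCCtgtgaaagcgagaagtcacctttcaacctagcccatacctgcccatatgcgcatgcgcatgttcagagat
Irak4: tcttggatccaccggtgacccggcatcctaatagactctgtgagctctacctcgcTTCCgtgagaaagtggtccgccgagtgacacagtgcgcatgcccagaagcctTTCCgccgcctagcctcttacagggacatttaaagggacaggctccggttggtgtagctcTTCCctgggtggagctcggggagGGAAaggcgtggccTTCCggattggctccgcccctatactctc

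GGAA occurred at 4 places in the 250 bases of *Cd180*, 1 place in the 113 bases of *Ly86* and 5 places in the 233 bases of *Irak4*. Among 27025 promoters, cut to the same length each time, 33.4% held as many as *Cd180*, 72.0% as many as *Ly86* and 14.4% as many as *Irak4*. The longer letters GAGGAA, searched on both strands and overlapping GGAA, were in none of the 3 windows and in 23.1% of all promoters of 250 bases. Only the *Cd180* window has that length. Before *Ticam1*, whose 231 bases are not shown, GGAA occurred at 6 places and GAGGAA at 1, and 6.23% of promoters held as many GGAA. These counts describe letters and not binding.

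**Figure D1:**
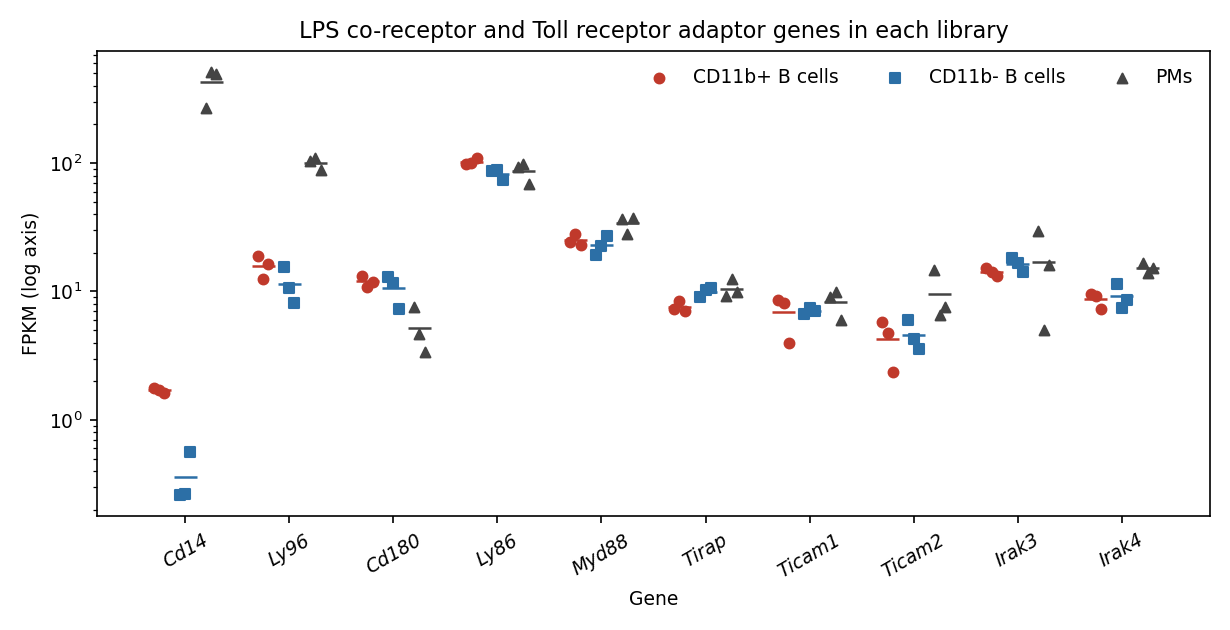
FPKM of the 10 co-receptor and adaptor genes (log axis) in each library of CD11b+ B cells (circles), CD11b- B cells (squares) and PMs (triangles), with horizontal strokes at the group means. The PMs lie far above both B cell groups for *Cd14* and clearly above them for *Ly96*, below CD11b+ B cells for *Cd180*, and near them for *Ly86*.

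The 2 co-receptors of TLR4 itself were the members with the largest differences between B cells and PMs. *Cd14* (chr18:36725067-36726798, minus strand) had an FPKM of 268, 513 and 493 in PM replicates 1 to 3, 1.77, 1.70 and 1.61 in CD11b+ B cells, and 0.260, 0.265 and 0.558 in the CD11b- cells. The group means were 424 ± 136, 1.69 ± 0.0823 and 0.361 ± 0.171 (SD, n = 3 each), so that no library of a group reached the range of another group. The fitted log2 difference of *Cd14* from PMs was -7.25 ± 0.27 (SE) in CD11b+ B cells and -8.24 ± 0.27 in the CD11b- cells (limma, adjusted p = 1.31e-06 and 9.15e-07). In bulk RNA, fewer cells of a type and less RNA per cell cannot be told apart, here and in all that follows.

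*Ly96* was present at a moderate level in B cells. Its FPKM was 19.0, 12.4 and 16.3 in CD11b+ B cells and 15.4, 10.7 and 8.19 in the CD11b- cells, which overlap, and 104, 109 and 87.8 in PMs, all far higher. The mean was 15.8% of that of PMs in CD11b+ B cells and 11.4% in the CD11b- cells, whereas that of *Cd14* was 0.398% and 0.0850%. *Ly96* was lower than in PMs, with log2 differences of -2.60 ± 0.21 and -3.06 ± 0.23 (limma, adjusted p = 6.36e-05 and 5.71e-05). The FPKM of their receptor *Tlr4*, no member of the set, averaged 2.68 ± 1.17 for CD11b+ B cells, 3.95 ± 0.221 for the CD11b- cells and 5.47 ± 1.66 for PMs, and its fitted differences of -0.84 ± 0.35 and -0.36 ± 0.26 from PMs did not pass (limma, adjusted p = 0.108 and 0.318). With median-ratio scaling *Tlr4* was at -1.22 in CD11b+ B cells and passed (limma, adjusted p = 0.0372), with -0.79 in the CD11b- cells (adjusted p = 0.0628). On the whole reads both passed, at -1.55 and -1.0 in edgeR (adjusted p = 0.0234 and 0.0415) and -1.56 and -1.02 in DESeq2 (adjusted p = 0.00344 and 0.00932).

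Between the B cell groups, *Cd14* was the member with the largest fitted difference. All 3 CD11b+ libraries lay above all 3 CD11b- libraries, at a ratio of means of 4.69, from 265 reads against 62 in total. The fitted difference of 0.99 ± 0.21 did not pass in limma (adjusted p = 0.263, unadjusted 0.00158). Fitted to the whole reads behind the FPKM, without the pseudocount of 1 FPKM, the difference was 2.21 on the log2 scale in both edgeR (adjusted p = 0.285) and DESeq2 (adjusted p = 0.011). An exact two-sided permutation test of the mean FPKM gave p = 0.1, the smallest value that 3 libraries against 3 allow.

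Markers of myeloid cells, and of other cells too, were higher on average in CD11b+ than in CD11b- B cells, as *Cd14* was. All 16 macrophage and monocyte markers had a higher mean in CD11b+ B cells, 13 of them without overlap, where 8.63% of all tested genes were higher without overlap. Of these markers, 0 of 15 passed in limma (12 had an unadjusted p under 0.05), 2 of 14 in edgeR and 12 of 15 in DESeq2. All 16 neutrophil markers were higher on average too, 14 without overlap, and 3 passed in limma, 9 in edgeR and 14 in DESeq2. The summed markers of plasma cells (252 to 641 against 101 to 179) and of erythroid cells (27.6 to 39.1 against 1.40 to 21.2) were also higher in every CD11b+ than in every CD11b- library, and the B cell marker sum given above was lower in every one. Over replicates 1, 2 and 3 of the CD11b+ B cells, however, the summed macrophage and monocyte markers were 353, 329.6 and 171 and the neutrophil markers 680.2, 1628 and 237, while *Cd14* spanned only 1.61 to 1.77. The part of these markers in the difference in *Cd14* was not tested.

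**Figure D2:**
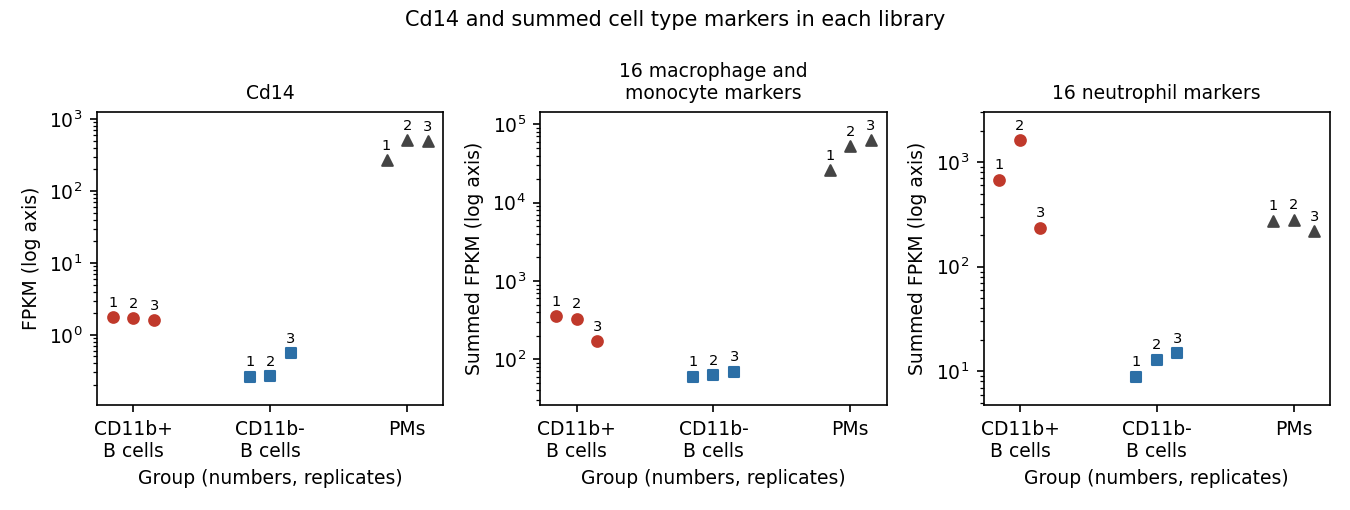
FPKM of *Cd14* and summed FPKM of 16 macrophage and monocyte markers and of 16 neutrophil markers in each library (log axes), with numbers giving the replicate. All 3 quantities are higher in every CD11b+ than in every CD11b- B cell library, and among the CD11b+ libraries the neutrophil sum spans 237 to 1628 whereas *Cd14* spans 1.61 to 1.77.

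On the RP105 side of LPS recognition, *Cd180* was higher on average in B cells than in PMs. It had an FPKM of 13.3, 10.9 and 11.9 in CD11b+ B cells, 13.0, 11.6 and 7.25 in the CD11b- cells, and 7.63, 4.68 and 3.37 in PMs. The CD11b+ libraries lay above all PMs, whereas the third CD11b- library lay just under the highest PM library. The mean of CD11b+ B cells (12.0 ± 1.2, SD) was 2.30 times that of PMs (5.23 ± 2.18), a fitted rise of 1.12 ± 0.29 (limma, adjusted p = 0.0207). In CD11b- B cells (10.6 ± 2.99) the difference of 0.92 ± 0.32 from PMs did not pass (adjusted p = 0.0601), and that of 0.20 ± 0.22 between the B cell groups did not either (adjusted p = 0.751). Under the 14 alternative settings described below, the difference of CD11b- B cells from PMs ran from 0.45 to 1.18 and passed in 4.

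The rise of *Cd180* over PMs was sensitive to single libraries and to the scaling. The call was lost when any 1 of the 3 CD11b+ libraries, PM replicate 2 or PM replicate 3 was left out, with adjusted p of 0.0567 to 0.086. In edgeR and DESeq2 it was lost as well (0.73 and 0.72, adjusted p = 0.113 and 0.0914). With median-ratio scaling, which moved the median gene by -0.408 (CD11b+) and -0.435 (CD11b-) on the log2 scale relative to PMs, *Cd180* was 0.68 higher in CD11b+ B cells (limma, adjusted p = 0.105), still above PMs. The CD11b- library with the lowest *Cd180* was also that with the highest sum of 7 B cell precursor markers, 192 against 0.785 and 1.65 in the other libraries of its group. Among the CD11b+ libraries the sum was highest in replicate 3 as well, at 48.2 against 2.13 and 3.69, and its *Cd180* of 11.9 lay between those of the other two. The part of these cells in the *Cd180* level was not tested.

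*Ly86*, which encodes the partner of CD180, was the most abundant member in B cells. Its FPKM was 98.8, 100 and 109 in CD11b+ B cells, 86.2, 87.8 and 74.2 in the CD11b- cells, and 93.0, 98.7 and 68.5 in PMs. It exceeded 96.0%, 95.0% and 95.4% of the 12493 genes that averaged an FPKM of at least 1, in the same order of groups. The CD11b+ libraries lay above all the others, narrowly so for PMs, but the difference of 0.31 ± 0.13 from CD11b- B cells did not pass (limma, adjusted p = 0.644, unadjusted 0.0434). The differences from PMs of 0.25 ± 0.20 for CD11b+ and -0.05 ± 0.19 for CD11b- B cells did not pass either (adjusted p = 0.362 and 0.828), and with median-ratio scaling they became -0.24 and -0.58 (limma, adjusted p = 0.437 and 0.0722). In DESeq2 *Ly86* was lower in CD11b- B cells, at -0.61 (adjusted p = 0.0392), and in edgeR the difference of -0.59 did not pass (adjusted p = 0.0593).

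A share of 1 gene in the summed FPKM of a pair does not depend on how a library was scaled. MD-1 and MD-2 are related proteins, and *Ly86* made up 83.8, 88.9 and 86.9% of the sum of *Ly86* and *Ly96* in CD11b+ B cells and 84.9, 89.1 and 90.1% in the CD11b- cells, but 47.1, 47.4 and 43.8% in PMs. Every B cell library thus lay far above every PM library. The means differed from that of PMs by 40.5 and 41.9 percentage points (exact permutation test, p = 0.1 each, the smallest possible). *Cd180* took 78.0, 79.4 and 89.2% of the sum of *Cd180* and *Tlr4* in CD11b+ B cells, 75.9, 75.8 and 64.2% in the CD11b- cells, and 65.5, 47.7 and 31.6% in PMs. CD11b+ B cells had the highest share without overlap with either group (exact permutation test, p = 0.1 each), whereas CD11b- B cells overlapped with PMs (p = 0.2, same test). Between the B cell groups, replicate 3 of each lay furthest from the other group. The remaining libraries were close, at 78.0 and 79.4% against 75.9 and 75.8%.

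**Figure D3:**
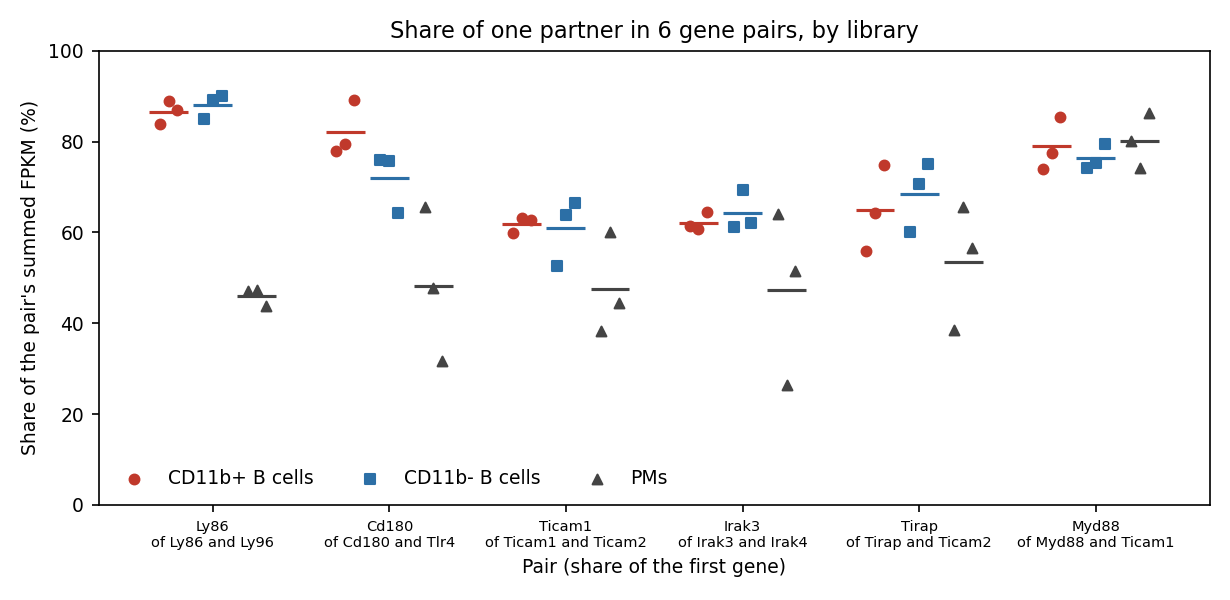
Share of the first gene in the summed FPKM of 6 gene pairs (percent) in each library, with strokes at the group means. For *Ly86* of *Ly86* and *Ly96* the B cell libraries lie between 83.8 and 90.1% and the PMs between 43.8 and 47.4%, while the groups overlap for the adaptor and kinase pairs.

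The adaptors differed less from PMs than *Cd14* and *Ly96* did. *Myd88*, the adaptor shared by most Toll receptors, had an FPKM of 24.5, 27.9 and 23.2 in CD11b+ B cells, 19.3, 22.8 and 27.2 in the CD11b- cells, and 36.7, 28.1 and 37.6 in PMs. PMs were highest without overlap, at ratios of 1.36 and 1.48 over the B cell means, but the differences of -0.42 ± 0.19 and -0.55 ± 0.20 did not pass (limma, adjusted p = 0.141 and 0.0637). With median-ratio scaling they were -0.90 and -1.06 and passed (limma, adjusted p = 0.00712 and 0.00384).

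*Tirap*, which carries MYD88 to the membrane, had an FPKM of 7.27, 8.50 and 6.99 in CD11b+ B cells, 9.06, 10.2 and 10.7 in the CD11b- cells, and 9.17, 12.4 and 9.84 in PMs. It was the member that was lower in every CD11b+ library than in every CD11b- library, with a difference of -0.35 ± 0.16 that did not pass (limma, adjusted p = 0.671). CD11b- B cells and PMs overlapped, with a difference of -0.06 ± 0.19 (adjusted p = 0.826). CD11b+ B cells lay under all PMs, with a difference of -0.41 ± 0.22 that did not pass (adjusted p = 0.19) and was -0.86 with median-ratio scaling (adjusted p = 0.0329).

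The 2 genes of the TRIF route were called under some settings only. *Ticam1*, encoding TRIF, had an FPKM of 8.60, 8.11 and 3.94 in CD11b+ B cells, 6.71, 7.45 and 7.0 in the CD11b- cells, and 9.11, 9.84 and 6.03 in PMs, all overlapping, with the third CD11b+ library lowest. Its differences from PMs of -0.28 and -0.19 did not pass (limma, adjusted p = 0.515 and 0.523), and in DESeq2 that of CD11b- B cells was -0.79 and passed (adjusted p = 0.0393). *Ticam2*, encoding TRAM (chr18:46557291-46574533, minus strand), had values of 5.76, 4.74 and 2.35 in CD11b+ B cells, 6.02, 4.24 and 3.54 in the CD11b- cells, and 14.7, 6.52 and 7.56 in PMs. All PMs lay above all B cells for *Ticam2*, and PM replicate 1 was well above the other PMs. The differences of -0.99 ± 0.38 for CD11b+ and -0.87 ± 0.33 for CD11b- B cells did not pass (limma, adjusted p = 0.0884 and 0.0784), while with median-ratio scaling they were -1.40 and -1.31 and passed (adjusted p = 0.0198 and 0.0125).

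Among the adaptor pairs, no share separated the groups. *Ticam1* made up 61.9 ± 1.75% of the sum of *Ticam1* and *Ticam2* in CD11b+ B cells, 61.0 ± 7.25% in the CD11b- cells and 47.6 ± 11.3% in PMs (SD, n = 3; exact permutation test against PMs, p = 0.2 each). *Myd88* made up 79.0 ± 5.90, 76.4 ± 2.81 and 80.1 ± 6.05% of the sum of *Myd88* and *Ticam1*, in the same order. The share of *Tirap* in the sum of *Tirap* and *Ticam2* was 64.9 ± 9.56, 68.6 ± 7.67 and 53.5 ± 13.8%.

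*Irak4*, the first kinase of the MYD88 complex, was lower in both B cell groups than in PMs. Its FPKM was 9.51, 9.28 and 7.24 in CD11b+ B cells, 11.5, 7.40 and 8.63 in the CD11b- cells, and 16.6, 13.9 and 15.1 in PMs, with no overlap between B cells and PMs. The log2 difference was -0.75 ± 0.20 in CD11b+ and -0.69 ± 0.21 in CD11b- B cells (limma, adjusted p = 0.0255 and 0.0337). The call against PMs was lost without CD11b+ replicate 1, CD11b+ replicate 2 or PM replicate 3 in the first comparison, with adjusted p of 0.0579 to 0.0677. In the second it was lost without CD11b- replicate 2, CD11b- replicate 3 or any 1 of the PMs, with adjusted p of 0.0525 to 0.122. A term for the replicate number in the titles, described below, also ended the call in both comparisons.

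*Irak3* varied more among PMs than between groups. Its FPKM was 29.5, 4.99 and 16.1 in PMs, 15.1, 14.3 and 13.1 in CD11b+ B cells, and 18.2, 16.7 and 14.2 in the CD11b- cells. The B cell libraries all fell inside the range of the PMs. The differences from PMs were 0.05 ± 0.52 and 0.24 ± 0.53 (limma, adjusted p = 0.94 and 0.728), and they became -0.59 and -0.40 without PM replicate 2, so no direction can be given. *Irak3* made up 61.4, 60.7 and 64.4% of the sum of *Irak3* and *Irak4* in CD11b+ B cells and 61.3, 69.3 and 62.1% in the CD11b- cells, and 64.0, 26.4 and 51.5% in PMs.

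Counted over the set, 0 of the 10 genes passed between CD11b+ and CD11b- B cells in limma, where 15 of 21778 genes passed (0.0689%), all of them higher in CD11b+ B cells (0.0689% higher and 0.0% lower). At an unadjusted p under 0.05 there were 2 members, *Cd14* and *Ly86*, against 7.68% of all genes. edgeR called 0 members and 0.269% of all genes, and DESeq2 called 1 member, *Cd14*, and 2.26% of all genes. The groups did not overlap for 3 members, 2 of them higher in CD11b+ B cells and *Tirap* lower, against 14.9% of all tested genes (8.63% higher and 6.32% lower). With so few calls over all genes, a gene that did not pass is not shown to be alike in the B cell groups.

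Between CD11b+ B cells and PMs, 4 of 10 members passed, *Cd180* higher and *Cd14*, *Ly96* and *Irak4* lower, where 30.3% of 22102 genes passed (21.5% higher and 8.78% lower). Of the 8 members without overlap, 2 were higher and 6 lower, and over all genes 46.7% did not overlap (34.3% higher and 12.4% lower). Between CD11b- B cells and PMs, 3 of 10 passed, all lower, where 36.7% of 20985 genes passed (25.8% higher and 11% lower). The 5 members without overlap were all lower, against 51.4% of all genes (36.1% higher and 15.2% lower). These comparisons share the PM libraries. The median fitted difference of the members was -0.414 for CD11b+ and -0.368 for CD11b- B cells against PMs, and that of all tested genes 0.25 and 0.24. With median-ratio scaling the calls were 6 and 5 members, all lower, where 11.9% and 14.9% of all genes were called lower and 13.5% and 16.4% higher. Higher genes made up 53.2% and 52.5% of all calls under this scaling, in place of 71.0% and 70.1%. In edgeR and DESeq2, 6 members each were called for CD11b+ B cells against PMs, all lower, where 18.1% and 19.3% of all genes were called lower. For the CD11b- cells, 5 members in edgeR and 7 in DESeq2 were called, all lower, where 20.9% and 23% of all genes were.

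**Figure D4:**
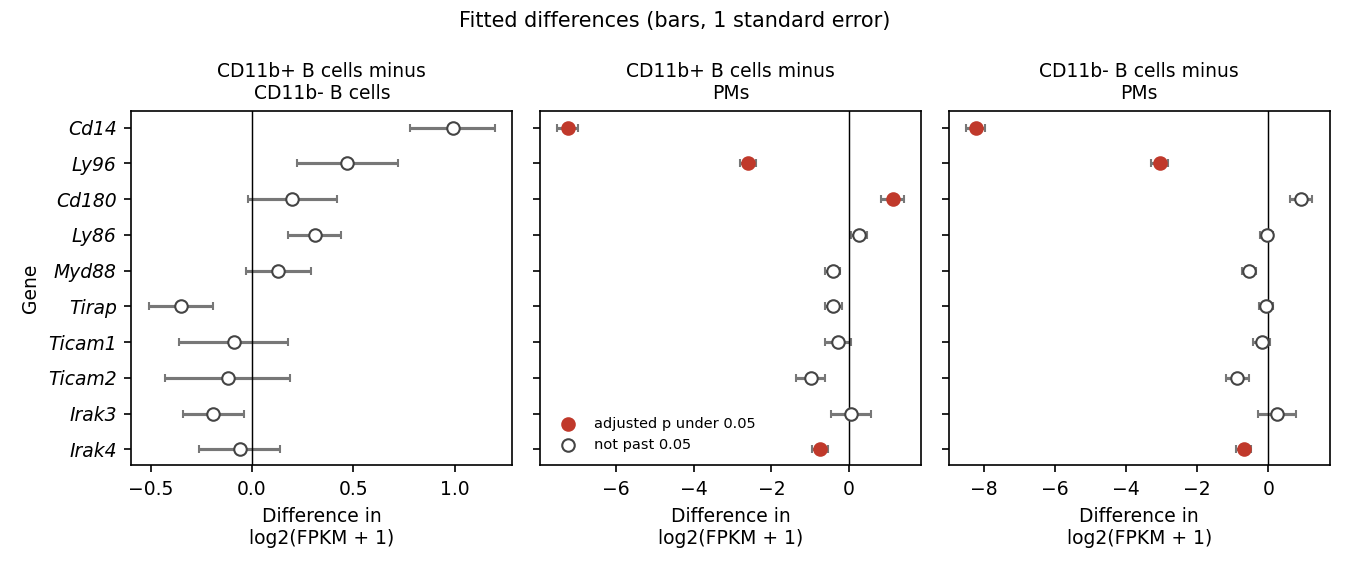
Fitted differences in log2(FPKM + 1) for the 10 genes in the 3 comparisons, with bars of 1 SE and filled points for adjusted p under 0.05 (limma). No point is filled between the B cell groups, 4 are filled between CD11b+ B cells and PMs, and 3 between CD11b- B cells and PMs.

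The size of the differences in level across the groups set *Cd14* apart from the other members. The ratio of the highest to the lowest group mean was 1176 for *Cd14*, and 3.56% of the 12493 genes averaging an FPKM of at least 1 had a larger one. It was 8.79 for *Ly96*, 2.30 for *Cd180*, 2.24 for *Ticam2* and 1.75 for *Irak4*, where the median of these genes was 2.44. For *Myd88*, *Tirap*, *Ly86*, *Ticam1* and *Irak3* it was 1.19 to 1.48, and 80.8 to 95.3% of genes had a larger ratio. PMs had the highest mean for 8 members, while CD11b+ B cells had it for *Cd180* and *Ly86*. The neighbouring group means of *Irak3* and *Ticam1* all overlapped in their libraries, as did the B cell groups for each member except *Cd14*, *Ly86* and *Tirap*.

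As a description over the 9 libraries, the genes with the profile most like that of each member were found from the root mean square difference of centred log2(FPKM + 1) among these same genes. For *Cd14* they were *Cd5l* (0.228) and *Slpi* (0.305), with mean FPKM of 523 and 2659.7 in PMs. *Cd5l* encodes a secreted protein of macrophages. For *Ly96* they were *Rap1gap2* (0.257) and *Rad51b* (0.267), and for *Cd180* *Exosc2* (0.158) and *Dek* (0.159). *Ly86* had *Rbm8a* at 0.0615 and *Atp5g3* at 0.0774, and 431 genes within 0.25 of it, where 1 gene lay this near to *Cd14* and 0 to *Ly96*. The nearest gene was *Pisd-ps2* (0.0823) for *Myd88*, *Insig1* (0.109) for *Tirap*, *Rcan1* (0.143) for *Ticam1*, *Mdm1* (0.189) for *Ticam2*, *Zfp715* (0.216) for *Irak3* and *Ywhab* (0.125) for *Irak4*.

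Another 64 genes of Toll receptor signalling were listed by role to set the members in their pathway. Between CD11b+ and CD11b- B cells, 59 were tested and 0 passed in limma (9 with an unadjusted p under 0.05, 0 called in edgeR and 2 in DESeq2, against the 7.68%, 0.269% and 2.26% of all genes given above), with a median difference of -0.0944. Against PMs, 22 of 61 were higher and 10 lower in CD11b+ B cells, with a median of 0.611, and 30 of 62 were higher and 12 lower in the CD11b- cells, with a median of 0.706. Over all tested genes, 21.5% were higher and 8.78% lower for CD11b+ B cells, with a median of 0.25, whereas for the CD11b- cells 25.8% were higher and 11% lower, with a median of 0.24, so calls of higher genes outnumbered those of lower genes there too. With median-ratio scaling these became 16 higher and 15 lower, and 19 higher and 15 lower, and in DESeq2 15 higher and 19 lower, and 19 higher and 20 lower.

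Of the Toll receptors themselves, 3 were higher and 4 lower in CD11b+ B cells than in PMs, of 11 tested, and 3 higher and 5 lower in the CD11b- cells. *Tlr1*, a partner of TLR2 in sensing lipopeptides, was higher by 3.62 ± 0.55 and 3.43 ± 0.56 (limma, adjusted p = 0.00198 and 0.00271), and *Tlr13*, a sensor of bacterial ribosomal RNA, was lower, at -4.90 ± 0.30 and -5.08 ± 0.25 (adjusted p = 1.39e-05 and 5.82e-06). *Tlr12* and *Tlr9* were also higher, and *Tlr2* and *Tlr8* lower, in both B cell groups. Of the 10 tested genes for LPS transfer and receptor chaperones, 2 were higher and 2 lower in CD11b+ B cells, and 3 higher and 3 lower in the CD11b- cells. *Lbp*, whose product delivers LPS to CD14, was lower, at -4.48 ± 0.27 and -4.77 ± 0.22, and *Unc93b1*, which escorts endosomal Toll receptors, was higher by 1.01 ± 0.19 and 1.39 ± 0.20 (limma, adjusted p = 1.37e-05, 4.34e-06, 0.00601 and 0.0014).

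The remaining lists hold kinases and ubiquitin ligases, negative regulators and transcription factors. They are given with the FPKM as deposited, a scaling under which calls over all genes also lean towards higher in B cells. Of 22 kinases and ubiquitin ligases, 7 were higher and 2 lower in CD11b+ B cells and 11 higher and 2 lower in the CD11b- cells. *Irak2*, a relative of IRAK4, was higher by 2.18 ± 0.25 and 2.40 ± 0.23 and *Pik3ap1*, the adaptor BCAP, by 2.35 ± 0.25 and 3.08 ± 0.23 (limma, adjusted p = 0.000399, 0.000177, 0.000305 and 5.54e-05), while *Ikbke* and *Peli2* were lower. Of the negative regulators, 6 of 11 were higher and 2 lower in CD11b+ B cells and 7 of 12 higher and 2 lower in the CD11b- cells. *Sigirr*, an inhibitory receptor of the family, was higher by 4.55 ± 0.27 and 4.74 ± 0.20 and *Tnfaip3*, the deubiquitinase A20, by 2.48 ± 0.45 and 3.03 ± 0.42, while *Lgals3*, which encodes galectin-3, was lower, at -4.05 ± 0.28 and -5.35 ± 0.22 (limma, adjusted p between 2.55e-06 and 0.00447). Of 7 transcription factors, 4 and 6 were higher and 0 lower, led by *Irf8* at 2.46 ± 0.17 and 2.77 ± 0.15 (limma, adjusted p = 3.01e-05 and 9.64e-06).

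**Figure D5:**
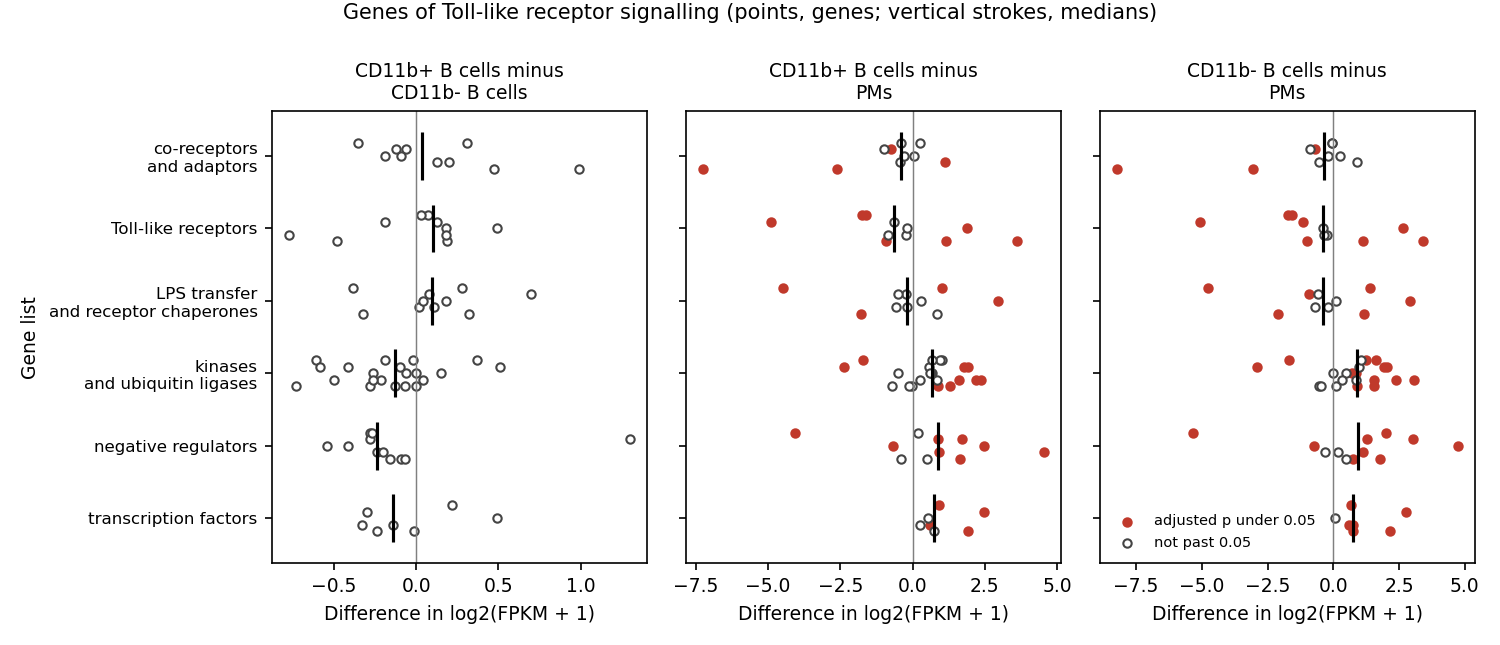
Fitted differences in log2(FPKM + 1) of the 10 co-receptor and adaptor genes and of the tested genes in 5 lists of Toll receptor signalling, in the 3 comparisons, with filled points for adjusted p under 0.05 (limma) and vertical strokes at the median of each list. No point is filled between the B cell groups, and against PMs the medians of the last 3 lists lie above 0, while those of the co-receptors and adaptors, of the Toll-like receptors (-0.647 and -0.377) and of LPS transfer and receptor chaperones (-0.194 and -0.399) lie below it.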

How the data were processed

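RNA was sequenced from 9 libraries, 3 per group, assigned to groups and replicates by their titles. The authors amplified full-length cDNA (SMART-seq HT), trimmed read pairs (Trim Galore 0.4.4, Trimmomatic 0.36, cutadapt 1.16), mapped them to GRCm38 with STAR 2.7.2b and counted reads on genes with featureCounts 1.6.1. The submitters' processing notes name GRCm39 as well. In the main table, 55322 genes have FPKM values, which the authors obtained by dividing these counts by exon length and by reads on genes. A second deposited table holds, for 11063 genes, a signal per gene, the counts divided by a size factor, with a column of gene clusters that was not used.

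FPKM times exon length gave whole reads for all values above 0, within 0.05 of a read, and the second table gave the same reads. limma 3.58.1 (R 4.3.3; lmFit, eBayes with a trend, two-sided) was fitted on log2(FPKM + 1) for the 6 libraries of each comparison, for genes averaging an FPKM of at least 0.05, and Benjamini-Hochberg adjustment ran over all genes tested, at a threshold of 0.05. Mean FPKM and pair shares were compared by exact two-sided permutation tests. The alternatives were a pseudocount of 0.1, no filter or one at a mean FPKM of 1, a joint fit of all 9 libraries, a term for the replicate number (replicate block), median-ratio scaling, edgeR 4.0.16 (quasi-likelihood) and DESeq2 1.42.0 (at least 10 reads) on the whole reads, and each library left out. The fit was tested on data simulated at a fixed dispersion. Nearly all signs were recovered there, but most changes of the smaller size did not pass. That size exceeded the ratio of means between the B cell groups, in either direction, for every member except *Cd14*. A gene that did not pass is therefore not shown to be alike. Calls over all genes held more false ones than the threshold allows, all of genes shorter than any member, with few reads. PCR reads without molecular identifiers are not independent molecules.

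All 10 members were named, with up to 3 genes per pathway list, direction and comparison by the size of the difference among those past the threshold, and 2 genes of nearest profile per member. Members and lists were chosen with earlier results of these data known. Positions are from GENCODE M21 by identifier, since positions in the tables mostly differ from GRCm38.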

Additional observations from a re-analysis of the deposited data

How the results depend on the processing

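Of 473 fitted differences of single members and *Tlr4* under the alternatives, 23 changed sign, and of 108 differences in pair share with a library left out, 6 did. Between the B cell groups, DESeq2 called 1 member (*Cd14*) and 2 pathway genes (*Hsp90b1* and *Lgals3*), where it called 2.26% of all genes. The other alternatives that kept all libraries called no member and no pathway gene. With a library left out the members stayed at 0 and the pathway genes at 0 to 1 (*Lgals3*, without CD11b+ replicate 3). For CD11b+ B cells against PMs, edgeR and DESeq2 each called 6, as median-ratio scaling did (*Cd14*, *Ly96*, *Irak4*, *Myd88*, *Tirap* and *Ticam2*, all lower), and 2 to 4 passed with a library left out (2 without CD11b+ replicate 1, CD11b+ replicate 2 or PM replicate 3). Of all genes, 18.1% were called lower there in edgeR, 19.3% in DESeq2 and 11.9% with median-ratio scaling. For CD11b- B cells against PMs, 5 passed with median-ratio scaling, with all 9 libraries in one fit and in edgeR, 7 in DESeq2, and 2 to 3 with a library left out. Of all genes, 14.9% were called lower there with median-ratio scaling, 20.9% in edgeR and 23.0% in DESeq2. For the other settings no share over all genes is given. DESeq2 split the pathway calls against PMs into 15 higher and 19 lower (CD11b+) and 19 higher and 20 lower (CD11b-). The cause was not tested.

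Against PMs with median-ratio scaling, in edgeR and in DESeq2, *Ly86* in CD11b+ B cells was -0.24, -0.26 and -0.27, *Irak3* in CD11b+ B cells -0.40, -0.68 and -0.68, and *Irak3* in CD11b- B cells -0.25, -0.49 and -0.51. With a library left out, the differences between CD11b+ and CD11b- B cells ran from -0.03 to 0.35 for *Cd180*, -0.26 to 0.22 for *Ticam1*, -0.33 to 0.18 for *Ticam2* and -0.19 to 0.10 for *Irak4*. Against PMs they ran from -0.47 to 0.03 for *Ticam1* and -0.59 to 0.58 for *Irak3* in CD11b+ B cells, and from -0.21 to 0.05 for *Ly86*, -0.14 to 0.06 for *Tirap* and -0.40 to 0.77 for *Irak3* in CD11b- B cells. Between the B cell groups the share differences, in percentage points, ran from -3.17 to 3.66 for *Ticam1* of *Ticam1* and *Ticam2*, -3.54 to 0.462 for *Irak3* of *Irak3* and *Irak4*, -8.60 to 0.943 for *Tirap* of *Tirap* and *Ticam2* and -0.624 to 5.14 for *Myd88* of *Myd88* and *Ticam1*, and the last ran from -4.41 to 1.88 between CD11b+ B cells and PMs.

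The same replicate number in CD11b+ and CD11b- B cells went with correlations of deviations of 0.284, -0.0193 and 0.206, and 2 of 3 CD11b+ libraries correlated best with their own number. The pairs at 0.284 and 0.206 also share a number in the descriptions. Not every pair passed 0.1, so the samples were not treated as paired, which does not show that they are independent. With a replicate block by title number, or by the number in the descriptions, 0 members passed between the B cell groups. By title number, 3 passed in CD11b+ B cells against PMs (*Irak4* was lost) and 4 in CD11b- B cells against PMs (*Irak4* was lost, *Cd180* and *Ticam2* passed). Depth limits *Cd14* most, with 15 to 31 reads per CD11b- library.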

Other observations

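Summed over 7 plasma cell markers, FPKM was 252 to 641 in CD11b+ B cells, 101 to 179 in CD11b- B cells and 93.8 to 154 in PMs. In the same order, 8 T and NK cell markers summed to 0.244 to 2.26, 0.0614 to 1.83 and 0.403 to 2.30, 7 dendritic cell markers to 1.98 to 2.75, 0.825 to 2.54 and 44.6 to 74.2, and 5 erythroid markers to 27.6 to 39.1, 1.40 to 21.2 and 0.0 to 0.112. The 7 B cell precursor markers summed to 2.13 to 48.2 in CD11b+ B cells and 0.0968 to 1.42 in PMs.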
